A study of Drosophila melanogaster with 4 samples.

Results

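The genes kirre and hbs encode cell-surface adhesion proteins of the immunoglobulin superfamily. All intervals that carry either gene name were taken from the deposited tables, 14 of 17175 in all. Of these, 12 belong to kirre and 2 to hbs. The pair was chosen by measured values, namely the high mean and the deposited call of 1 intron in each gene. The folds and p-values of those introns therefore describe the choice and are not a test of it.

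kirre (kin of irre, also known as dumbfounded), rst (roughest), sns (sticks and stones) and hbs (hibris) form the irre cell recognition module, the fly relatives of the vertebrate Neph and nephrin proteins. A kirre or rst molecule on one cell binds an sns or hbs molecule on its neighbour. These contacts bring founder cells and fusion-competent myoblasts together before they fuse into muscle, sort cells in the developing eye and build the slit diaphragm of nephrocytes.

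The signal comes from individual-nucleotide resolution crosslinking and immunoprecipitation (iCLIP), in which ultraviolet light fixes a protein to the RNA it touches and the recovered RNA is sequenced. The study used SL2 cells, a male Drosophila melanogaster line (Schneider's line 2), with no genotype change or treatment given in the labels. In 2 libraries the antibody was a polyclonal one, raised in rabbit, to Ssx (Sister of Sex-lethal), an RNA-binding paralog of Sex-lethal, and in 2 control libraries it was rabbit IgG. Nothing in the labels tells whether libraries were made from separate cultures, so the deposited errors may hold technical spread only.

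Each table row is the authors' comparison of both groups in 1 interval, with the mean of normalized reads over the 4 libraries, a log2 fold change with its standard error (SE) and p-values by DESeq2. The tables do not state the direction of the fold. A positive value is taken to mean more reads with the Ssx antibody, a reading that is likely but not certain. Coordinates are those of dm6. Of 9 markers of the hemocyte lineage, to which SL2 cells belong, 6 were listed, with means of at most 8.38 normalized reads. Hml, NimC1 and Sr-CI were not among the listed genes. Among 7 markers of muscle, where kirre and hbs are best known, 5 were listed, of which sls had an intron at 287 normalized reads in the authors' deposited table, and the others stayed at or under 1.24. Of 4 markers of neurons 3 were listed, and the highest mean was that of a Syt1 intron, at 13.1 normalized reads. Reads recovered with an antibody are not transcript levels, so these values do not measure cell identity.

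Nearly all signal of both genes was intronic. kirre was listed 12 times in the intron table and in none of the tables for 5' UTRs, coding sequence and 3' UTRs. hbs was listed once in the intron table and once in the 3' UTR table. An adjusted p was deposited for 7 intervals of kirre and 1 of hbs.

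The hbs intron (2R, 15011831 to 15035980, plus strand) is 24.2 kb wide and begins 435 bases after the 5' end of the gene in the RefSeq annotation. It spans 78.6% of the gene. Its mean was 155 normalized reads in the authors' deposited table. The means rise in steps that gave whole reads for each of 4 libraries, which carry no names and were assigned to no group. In hbs these libraries held 690, 533, 23 and 12 reads, or 265, 282, 41.8 and 29.9 after scaling. The first and second unnamed libraries were thus high and close to each other, and the third and the fourth were low. In the authors' deposited table the log2 fold change was 2.81 ± 0.63 (SE, DESeq2 adjusted p = 0.000903), a fold of 7.0 with a 95% interval of 2.97 to 16.5.

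The leading kirre interval (X, 2741245 to 2862763, plus strand) is the listed intron nearest to the 5' end of the gene, which it follows by 861 bases. It is 122 kb wide, or 30.8% of a gene of 394 kb. Its mean was 170.0 normalized reads in the authors' deposited table. The unnamed libraries held 729, 540, 38 and 18 reads, or 280.1, 286, 69.0 and 44.8 after scaling. As in hbs, the first and second libraries lay well above the third and the fourth. In the authors' deposited table the log2 fold change was 2.22 ± 0.62 (SE, DESeq2 adjusted p = 0.0106), a fold of 4.66 with a 95% interval of 2.01 to 10.8.

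These are 2 of 37 enriched intervals in the intron table. Of the 1023 tested introns 3.62% were enriched at a DESeq2 adjusted p under 0.05, and 5.57% depleted. The share is given for scale only, because the calls were used to pick the genes. By its mean the kirre intron ranked 30 and the hbs intron 34 among 1012 distinct tested introns. Tested introns as a whole were shifted up, with a median log2 fold change of 0.69 over these 1012. The median differed with width, and was 0.587 for tested introns of 10 to 50 kb, a range that holds the hbs intron. It was 0.0819 for the 36 of at least 100 kb, 5 of them kirre intervals. The centring that follows took no account of width. When folds were centred on the median of all tested rows, hbs kept its call at 2.10 (adjusted p = 0.0139), whereas kirre had 1.51 (adjusted p = 0.107) and did not pass. Nor did kirre pass when the deposited p-values were adjusted over all 8796 listed introns (adjusted p = 0.0908).

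**Figure D1:**
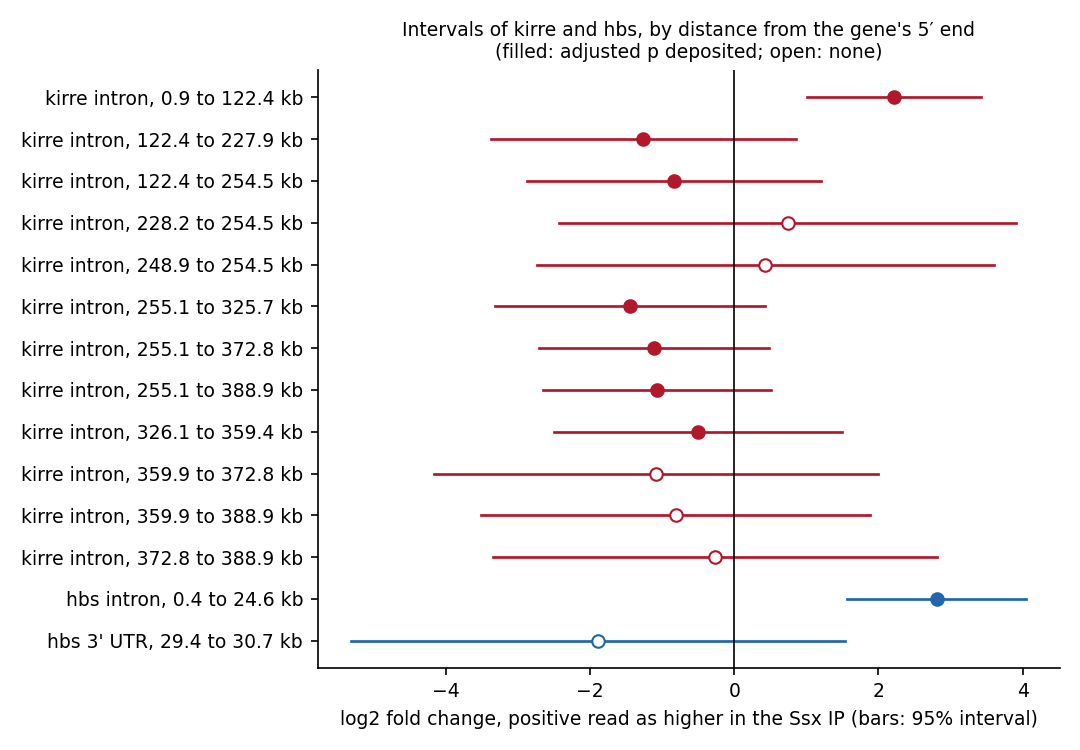
Log2 fold change (points) with 95% intervals (bars) of the 12 kirre and 2 hbs intervals, labelled by distance from the 5' end of the gene in kb. The intervals of the kirre intron at 0.9 to 122.4 kb and of the hbs intron lie above 0, and those of the other 12 intervals cover 0.

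The 12 kirre intervals overlap, since they come from alternative transcripts. They reduce to 7 disjoint introns that cover 386 kb. In each of the 4 wider intervals made up of these introns, the reads inside equalled the reads of the parts, with 0 left over. No read was thus counted between the parts of these wider intervals. None of them spans the gap between the first and the second intron or that between the third and the fourth. The disjoint introns therefore split the signal of the listed kirre intervals without counting a read more than once.

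The 5'-most intron stood apart from the rest of the gene. It held 79.1% of the summed mean signal on 31.5% of the width. Its level was 1.40 normalized reads per kb, against 0.170 over the other 6 introns together, a ratio of 8.24. The second intron (2862817 to 2968280) is nearly as wide, at 105 kb, and had 0.0915 per kb. Among the rest, the level per length was highest in the fifth intron (3066509 to 3099761), at 0.355, and lowest in the third (2968579 to 2994860), at 0.0676.

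The fold changes also differed along the gene. Of the 6 downstream introns, 5 had negative values in the authors' deposited table and none passed. The fourth intron (2995489 to 3066110) had -1.45 ± 0.96 (DESeq2 adjusted p = 0.328) in the authors' deposited table. The second had -1.27 ± 1.08 (DESeq2 adjusted p = 0.481) and the fifth -0.51 ± 1.02 (DESeq2 adjusted p = 0.804) in the authors' deposited table. The third, the sixth and the seventh were listed without an adjusted p and held only 8 to 11 reads each. The widest downstream interval (2995489 to 3129252), which joins the fourth to the seventh, had -1.07 ± 0.81 (DESeq2 adjusted p = 0.417) in the authors' deposited table. The 5'-most intron is the one that led to the choice of kirre, so its distance from the others is a description and no test. The 95% interval of that widest downstream interval, -2.66 to 0.52, did not meet that of the 5'-most intron, 1.01 to 3.43. The intervals of the second intron, up to 0.85, and of the fourth, up to 0.43, did not meet it either, while those of the other 4 introns did.

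**Figure D2:**
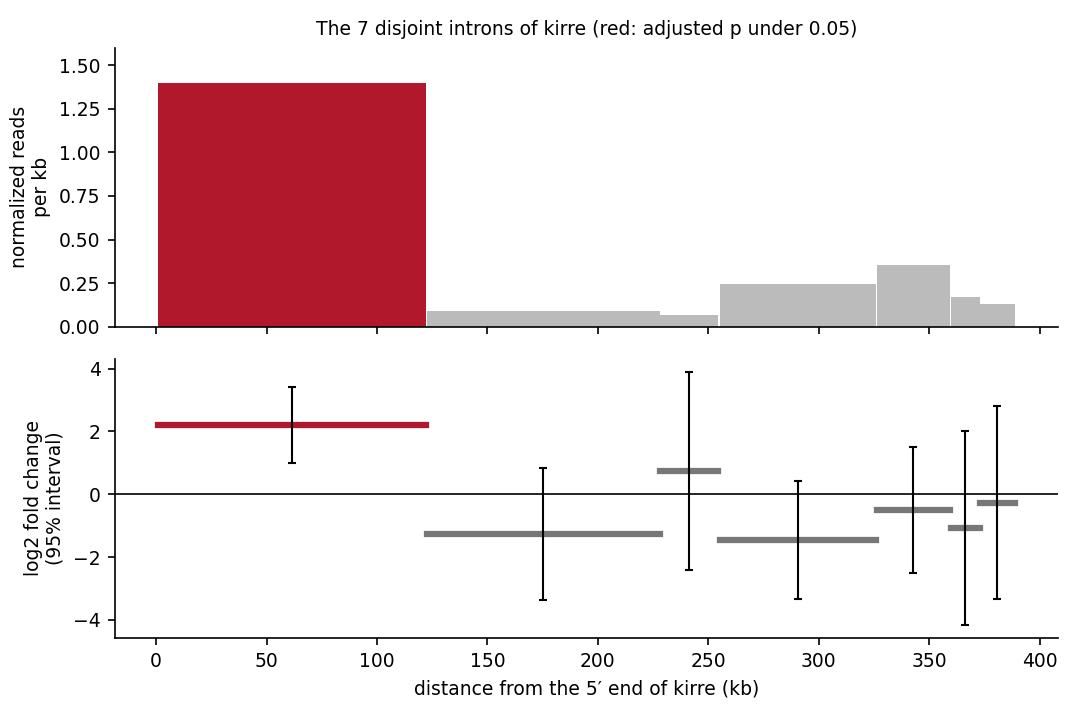
Normalized reads per kb (top, bars from 0) and log2 fold change with 95% intervals (bottom) of the 7 disjoint kirre introns, against distance from the 5' end of the gene in kb. The 5'-most intron reaches 1.40 per kb at a fold change of 2.22, and the others lie at or under 0.355 per kb.

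The split between the 5'-most intron and the rest was unequal among the libraries. Its share of the kirre reads was 729 of 808 reads in the first unnamed library (90.2%, Clopper-Pearson 95% interval 88.0 to 92.2) and 540 of 590 in the second (91.5%, 89.0 to 93.6). In the third it was 38 of 59 (64.4%, 50.9 to 76.4), and in the fourth 18 of 52 (34.6%, 22.0 to 49.1). A share within a library does not depend on how libraries were scaled to each other. The intron takes 31.5% of the width. Since it was selected for its high mean and its call, a share above its width is part of the choice. A share that is unequal among libraries can come from the choice too, and is no test. These intervals cover counting error only, and reads that are copies of a molecule would make them too narrow.

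The downstream introns together held 79, 50, 21 and 34 reads in the same 4 libraries, or 30.4, 26.5, 38.1 and 84.6 after scaling. The fourth library was highest, and the others were similar. In the fourth intron alone the scaled values were 11.1, 5.83, 12.7 and 39.8. In the second intron they were 4.99, 5.30, 10.9 and 17.4, so the third library was also above the first and the second there. The summed downstream signal was highest in a library with 34 of its 184 reads. No fit without that library was made, because the libraries carry no names.

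**Figure D3:**
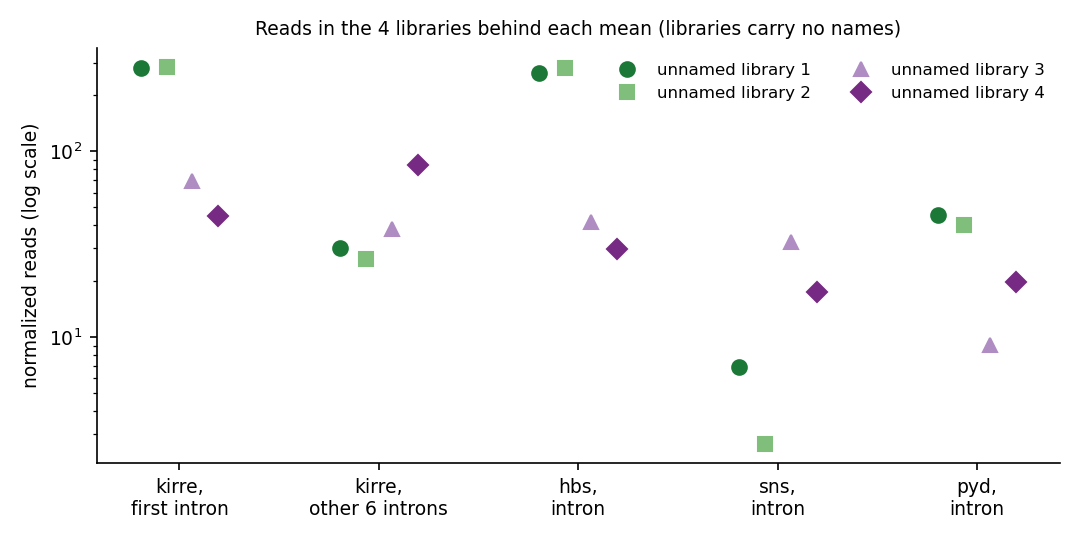
Scaled reads (log axis) in each of the 4 unnamed libraries for the 5'-most kirre intron, the other 6 kirre introns together, the hbs intron, and the leading introns of sns and pyd. The first and second libraries are high in the 5'-most kirre intron and in hbs (265 to 286), and in sns they are the lowest (6.92 and 2.65).

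Folds of both signs within a gene were common. Of 92 genes with at least 2 disjoint tested introns, 44 had both a positive and a negative value. The distance from the highest to the lowest kirre value, 3.67 on the log2 scale, ranked 17 among the 92, whose median was 1.41. kirre had 4 such introns and many of the others only 2. A range tends to grow with their number, which the rank does not take into account. In 17 of the 92 the 95% intervals of the highest and the lowest intron were apart. An enriched intron beside a negative one was found in 5 genes, of which CG42324, Gprk1 and kirre were among those 17. The genes other than kirre were named after their values were seen. The highest kirre value is that of the intron that led to its choice. The range of kirre, its rank and its place among these genes are therefore a description and no test.

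Wide introns gather more reads, so the level was also set against width. The kirre intron ranked 18 by width among the 8704 distinct listed introns and was the widest of those enriched. Of 36 tested introns of at least 100 kb, 5 were kirre intervals, 2 were enriched and 2 were depleted. The enriched ones were kirre and CG32373, which had a mean of 9.25 normalized reads in the authors' deposited table. Per kb the kirre intron lay at the 83.5th percentile of all listed introns and at the 95.1st of the 2138 listed introns of at least 10 kb. The hbs intron, with 6.41 normalized reads per kb, lay at the 96.6th and the 99.1st percentile. Among the 1012 distinct tested introns kirre lay lower, at the 65.2nd percentile, and hbs at the 89.5th. Among the 671 tested introns of at least 10 kb they lay at the 84.4th and the 97.2nd. Per length the hbs level was thus higher than that of kirre, although the totals of both introns were close, at 1258 and 1325 reads. A single read gives a lower level per kb in a wider interval, so percentiles over all widths are not on equal terms. Both introns were chosen for a high mean, so high percentiles follow in part from the choice.

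**Figure D4:**
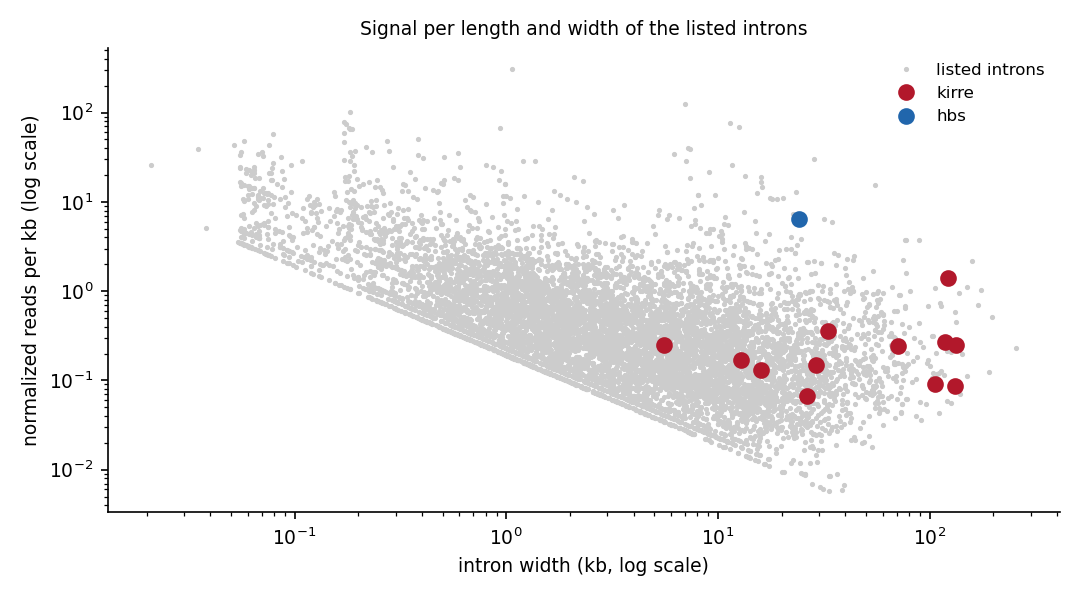
Normalized reads per kb against width in kb (both log axes) of all listed introns, with the 12 kirre introns and the hbs intron marked. The hbs intron stands at 6.41 per kb, and the 5'-most kirre intron at 1.40 per kb lies above the other kirre introns.

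The kirre intron encloses other genes. By the RefSeq annotation 4 genes lie inside it and Syx4 overlaps its start, and together they cover 14.7% of its width. Those inside are w, which encodes the white eye pigment transporter, CG32795, CG12498 and lncRNA:CR43494. Only w and CG32795 had listed intervals there, all 3 on the minus strand, with means of 0.851 to 1.1 normalized reads in the authors' deposited tables. The counting kept strands apart. Among 8647 pairs of nested introns on the same strand the inner mean was never higher, and among 237 pairs on opposite strands it was higher in 36. The annotation used here gives no strand for Syx4, CG12498 and lncRNA:CR43494, and their part in the kirre reads was not tested. The second intron, in turn, overlaps plus-strand intervals of CG3588, CG3598, CG3603 and CG14420, each with a mean of at most 1.11 normalized reads in the authors' deposited tables. The hbs intron encloses CG43101, Obp51a and lncRNA:CR45256, which cover 6.22% of it and had no listed interval. Their part was not tested either. The deposited rows give no position of reads inside an interval.

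The single exonic interval of either gene was the 3' UTR of hbs (2R, 15040760 to 15042134, plus strand). It held 2 reads, both in 1 of the unnamed libraries of that table. The authors' deposited table gave it -1.89 ± 1.75 on the log2 scale (DESeq2 unadjusted p = 0.281) and no adjusted p. This is too few reads to set it against the intron.

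None of the intervals of sns and rst, the binding partners of kirre and hbs, passed. sns, the nephrin-like receptor closest to hbs, had an intron (2R, 8843196 to 8846766) with -2.13 ± 0.99 on the log2 scale (DESeq2 adjusted p = 0.148) in the authors' deposited table. It held 18, 5, 18 and 7 reads, or 6.92, 2.65, 32.7 and 17.4 after scaling, so here the third and the fourth libraries were the high ones. Its level of 4.18 normalized reads per kb lay between those of hbs and kirre, but it is only 3.57 kb wide, so these levels are not on equal terms. The median level of tested introns was 1.85 per kb at 1 to 10 kb, 0.561 at 10 to 50 kb and 0.211 from 100 kb. rst, the paralog of kirre, lies inside the kirre gene with its intervals on the minus strand. At most 5 reads were found in any of its 4 intervals, and its leading intron had 0.59 ± 1.53 (unadjusted p = 0.699) in the authors' deposited table. Per kb that intron reached 0.0855 normalized reads. Of the 4 members of the module, 3 were tested in introns, and the calls among them were those that led to the choice of kirre and hbs.

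Of 8 partner genes, 6 were listed in introns and 3 were tested there, and none passed. pyd, the fly ZO-1 scaffold protein, had its leading intron (3R, 8881340 to 8930715) at 1.48 ± 0.85 (DESeq2 adjusted p = 0.259) in the authors' deposited table. It held 119, 76, 5 and 8 reads, or 45.7, 40.2, 9.08 and 19.9 after scaling, and the first and second libraries were again the high ones. All 4 tested introns of pyd were positive, up to 2.90 ± 1.32 (DESeq2 adjusted p = 0.142) in a narrower intron (3R, 8842840 to 8864785) of the authors' deposited table. These introns overlap in part and share reads, and only 3 are disjoint. The 5 tested coding intervals of pyd had means of only 0.449 to 0.892 normalized reads in the authors' deposited table. Their values lay between -0.70 and 0.83 on the log2 scale, and none passed. Of all 1921 tested coding intervals none passed either. ed (echinoid), another immunoglobulin receptor, had 0.74 ± 1.08 (DESeq2 adjusted p = 0.723) in the authors' deposited table. siz, a guanine nucleotide exchange factor of the fusion pathway, had -0.34 ± 1.20 (DESeq2 adjusted p = 0.890) in the authors' deposited table. cindr, rols and Nrg were listed in introns without an adjusted p, with leading means of 2.65 to 3.72 normalized reads in the authors' deposited table. shg (E-cadherin) was not among the listed genes.

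Mec2, a stomatin-family gene related to vertebrate podocin, was the partner that passed in another region. Its 3' UTR interval of 105 bases (X, 19190089 to 19190193, plus strand) had 2.38 ± 1.0 on the log2 scale (DESeq2 adjusted p = 0.0491) in the authors' deposited table. It held 58, 70, 8 and 0 reads in the unnamed libraries of that table, or 27.8, 42.2, 10.5 and 0 after scaling. The call is close to the threshold, and enrichment was common in this region. Of the 289 tested 3' UTR intervals 33.2% were enriched and 0.692% depleted, and of the 178 genes 36.5% and 1.12%.

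The wider lists held few calls besides kirre and hbs. Of 28 genes of myoblast fusion, 16 were listed in introns and 4 were tested. Besides kirre and hbs these were sns and siz, and neither passed. The median log2 fold change of the 4 was 0.94, and the selected kirre and hbs carry it, since sns and siz alone had a median of -1.24. Over the 507 genes tested in introns, with 1 interval each, the median was 0.61, and 4.73% were enriched and 6.9% were depleted. In 3' UTRs 0 of the 13 listed fusion genes were tested.

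Of 36 immunoglobulin and related adhesion and guidance receptors, 29 were listed in introns and 9 were tested. Besides kirre and hbs 1 passed, the receptor tyrosine phosphatase gene Lar, as depleted. Its intron (2L, 19607082 to 19643330) had -3.36 ± 0.89 on the log2 scale (DESeq2 adjusted p = 0.00849) in the authors' deposited table. The scaled values were 5.76, 2.12, 70.8 and 29.9, so the third and the fourth library were high and the others low. Another Lar intron (2L, 19702026 to 19714888) had 2.31 ± 0.92 (DESeq2 adjusted p = 0.0888) in the authors' deposited table and did not pass. Its scaled values of 41.9, 41.3, 9.08 and 4.98 were high in the first and the second library, as in kirre. Ptp10D, a related phosphatase receptor, had the next highest mean of the list, 92.1 normalized reads, at 0.22 ± 0.65 (DESeq2 adjusted p = 0.877) in the authors' deposited table. The median of the 9 was 0.74 with the selected kirre and hbs, and that of the other 7 was 0.22.

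Among 21 other adhesion receptors, 13 were listed in introns and 2 were tested, and none passed. The cadherin gene CadN2 had a higher mean than kirre, 302.6 normalized reads, at 1.35 ± 0.65 (DESeq2 adjusted p = 0.172) in the authors' deposited table. Nlg2, a neuroligin, had -0.92 ± 1.15 (DESeq2 adjusted p = 0.664) in the authors' deposited table. The integrin gene mys had an intron at 4.70 normalized reads, with no adjusted p, in the authors' deposited table.

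**Figure D5:**
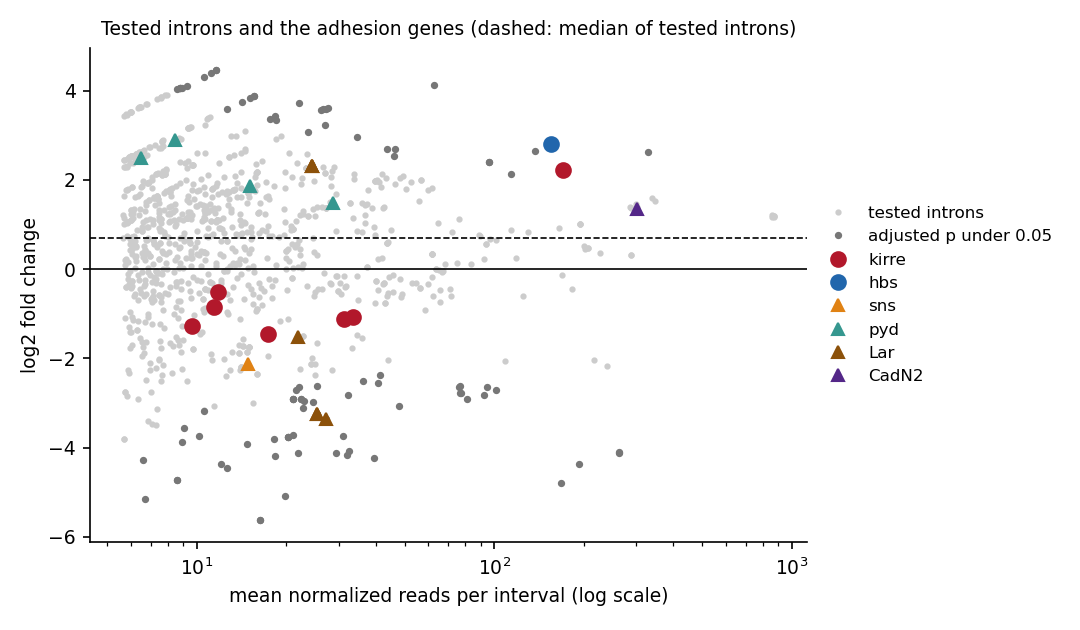
Log2 fold change against mean normalized reads (log axis) of the tested introns, with kirre, hbs, sns, pyd, Lar and CadN2 marked. The leading kirre intron and the hbs intron stand at the upper right with means of 170.0 and 155, and the dashed line marks the median of 0.69. The other tested kirre intervals have negative values at means of 9.65 to 33.5.

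Besides each other, the genes with introns closest to kirre and hbs in mean and fold change were the same in both cases. Likeness was the distance in log2 mean and log2 fold change over the 506 other genes tested in introns. CG42335 lay at 0.52 from kirre and 0.24 from hbs, with a mean of 138 normalized reads and 2.64 ± 0.65 on the log2 scale in the authors' deposited table. The LIM-homeodomain gene ap (apterous) lay at 0.58 from kirre through an interval with 2.13 ± 0.67, and at 0.80 from hbs through one with 2.40 ± 0.74, in the authors' deposited table. kirre and hbs lay at 0.60 from each other, which their choice by mean and call brings with it. The introns of CG42335 and ap are 7.34 kb and 8.06 to 9.69 kb wide, far narrower than the kirre intron.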

How the data were processed

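Per the submitters' processing notes, cutadapt 1.6, Bowtie 0.12.7, DESeq2 1.14.1 and DESeq were used, with the builds BDGP6 and dm6. How reads were counted, how duplicates were treated and which annotation was used is not given in the sources used here. Each interval of the deposited tables has a mean signal (reads divided by size factors, over the 4 libraries), a log2 fold change, a score for its standard error and for the test statistic, and p-values with adjusted p-values. The statistic equals fold change over SE and the p-value is its two-sided normal p, as checked on all rows. The deposited adjusted p was not fully reproduced. Benjamini-Hochberg adjustment over the rows that have one differed from it by up to 0.0317 in introns and 0.0356 in 3' UTRs. For the leading introns of kirre and hbs that adjustment gave 0.0106 and 0.000926. Rows without an adjusted p have a mean of at most 5.65 in introns.

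The tables used here hold no per-library column, so the planned count test was not run and values carry no SD. Whole reads behind each mean were solved at a relative tolerance of 1e-13 for means up to 200. The solution was unique for 100% of these in the intron table, where 24 intervals were higher, and in the 3' UTR table. On simulated means, 2000 of 2000 intervals were recovered in each table. Size factors of the unnamed intron libraries were 2.60, 1.89, 0.551 and 0.402, so the third and the fourth are shallow. Their names are unknown, so they entered no comparison of groups.

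Benjamini-Hochberg adjustment over other sets of intervals, centring and other thresholds were the alternatives. The members and gene lists were chosen with earlier results of these data known. Named genes were all members of the module and partner lists, list members that passed, the 3 with the highest intron mean per list, and the 3 nearest genes. Symbols were matched through RefSeq (Release 6). Python 3.11.15, pandas 2.3.3 and scipy 1.17.1 were used.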

Additional observations from a re-analysis of the deposited data

How the results depend on the processing

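The hbs call was kept under each other adjustment, with adjusted p-values of 0.000688 to 0.00797. That of kirre was kept at 0.00855 to 0.0193, except with an adjustment over all 8796 listed introns, where it was lost at 0.0908 because more intervals were adjusted for. Centred on the median of tested introns of all widths, the log2 fold change of kirre was 1.51 and no longer passed. With the direction of the deposited fold reversed, an alternative chosen after seeing the data, the values are -2.22 for kirre and -2.81 for hbs. Per kb, kirre moved from the 83.5th percentile of listed introns to 95.1 among introns of at least 10 kb and to 86.6 by whole reads, and hbs from 96.6 to 99.1 and 97.8. The 37 enriched introns became 4 at an adjusted p under 0.01 and 102 under 0.1, and the 57 depleted ones became 24 under 0.01 and 74 under 0.1. The balance of more depleted than enriched introns thus turned under 0.1. kirre did not pass at 0.01, and hbs did. Intron medians of the partner, fusion, immunoglobulin and other adhesion lists did not change with the interval chosen per gene. With the interval of smallest p, the median over all genes tested in introns moved from 0.61 to 0.74. In coding sequence the fusion list moved from 0.682 to 0.805 and the other adhesion receptors from 0.116 to 0.660.

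No paired analysis was possible because the tables used here hold no values of named libraries. For the same reason leaving out a library, TMM scaling and another filter on low counts were not run. Depth limits the downstream kirre introns, 3 of which held 8 to 11 reads, and the third and the fourth library, which held 38 and 18 of the 1325 reads of the kirre intron.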
